A study of Hymenochirus boettgeri with 8 samples.

Results

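In 8-cell embryos of Hymenochirus boettgeri, the dwarf clawed frog, 226 of 145306 assembly genes formed a peak above unfertilized eggs and above both later stages examined. Poly-A RNA of whole wild-type eggs, embryos and tadpoles was sequenced in 8 libraries, 2 for each of 4 stages: unfertilized egg, 8-cell embryo, embryo at stage 26 on the Nieuwkoop and Faber (NF) scale, and swimming tadpole. Levels are TPM, the share of a transcript in its library scaled for its length, summed over the transcripts of each assembly gene. An assembly gene is a set of transcripts that share an identifier up to the isoform number, and no identifier was paired with a gene name. The 226 genes had at least 10 TPM in both 8-cell libraries and at least 4 times the higher egg library, were below 20 TPM in both eggs, and in all 4 stage 26 and tadpole libraries lay below the lower 8-cell library. The genes were chosen by these levels in all 8 libraries, so the height of the peak over eggs and over the late stages is a description of the choice and was not tested as a result. The labels do not say how many animals or clutches a library holds, and a p-value here covers the spread of these 8 libraries, which may be technical.

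In frogs, the egg is loaded with maternal RNA while it grows in the ovary, and in Xenopus the genome of the embryo stays largely silent through the early cleavages until the midblastula transition. Many maternal RNAs of Xenopus are stored with short poly-A tails, and cytoplasmic polyadenylation lengthens the tails of some of them, and deadenylation shortens those of others, during egg maturation and after fertilization. RNA captured by its tail therefore depends both on how much RNA is present and on its tail. Neither tail length nor absolute RNA per embryo was measured in these libraries, so more RNA, longer tails and a smaller amount of other RNA cannot be told apart in a higher TPM. The stage labels were not checked against marker genes, since no identifier carried a name.

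The egg libraries stood apart from each other, which bears on each comparison with eggs. Egg replicate 1 had 51089 genes above 0, against 77233 in egg replicate 2, and the other libraries had 78406 to 121300. Of the genes at 10 TPM or more in egg replicate 1, 33.3% were at least 4-fold above egg replicate 2, and 40.2% of those in egg replicate 2 were at least 4-fold above egg replicate 1. Between the 8-cell libraries the same shares were 3.26% (replicate 1 over replicate 2) and 5.90% (replicate 2 over replicate 1). Across single pairs of an 8-cell and an egg library, 14.9% to 32.1% of genes were 4-fold higher in the 8-cell library and 10.3% to 21.1% were 4-fold higher in the egg library. A 4-fold difference was thus more frequent between the egg libraries than between either of them and an 8-cell library.

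The 226 genes were of moderate level at the 8-cell stage. Their median was 23.9 TPM in 8-cell replicate 1 and 18.9 TPM in 8-cell replicate 2, against 1.30 TPM in the first egg library and 2.54 TPM in the other. Together they held 0.647% ± 0.125 of the TPM of 8-cell embryos and 0.0586% ± 0.0193 of that of eggs (mean ± SD, n = 2 each). At stage 26 they held 0.120% ± 0.00469 and in tadpoles 0.120% ± 0.00644 (n = 2 each). By 8-cell mean, 100 genes lay between 10 and 20 TPM, 88 between 20 and 40 TPM and 38 at 40 TPM or more. The median of the egg means was 1.18 TPM in the lowest of these classes, 2.60 TPM in the middle class and 5.94 TPM in the highest. The highest single value was 184.8 TPM.

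**Figure D1:**
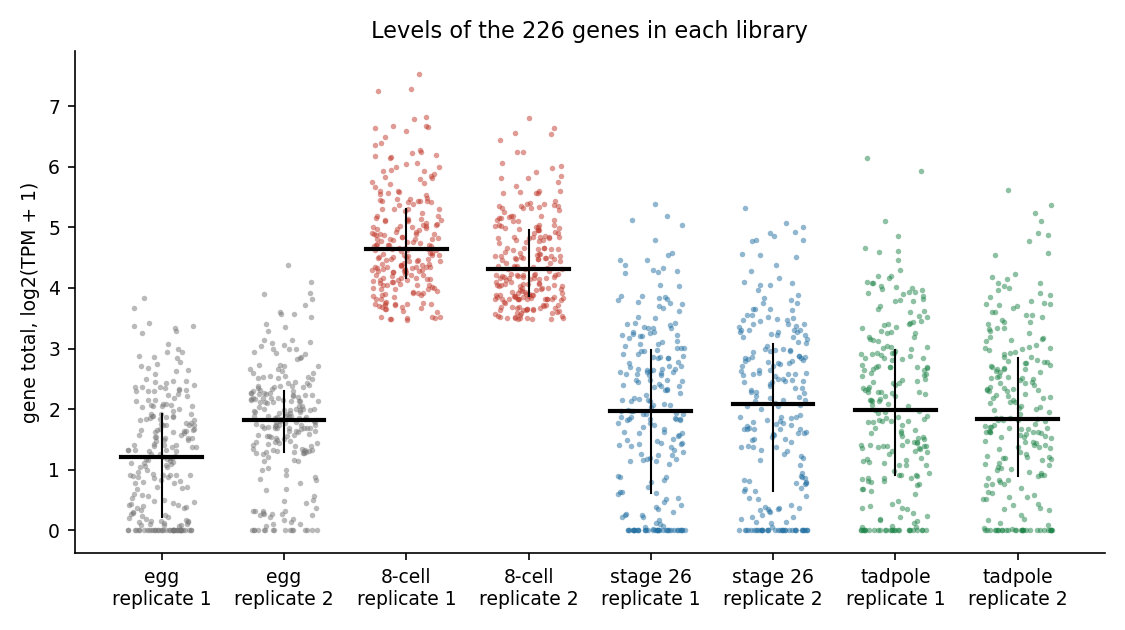
Gene totals of the 226 genes in each library, as log2(TPM + 1); each point is a gene, the thick line is the median and the thin line spans the quartiles. The medians are 23.9 and 18.9 TPM in the 8-cell libraries, and between 1.30 and 3.22 TPM in the other 6 libraries; the gap above the other stages is set by the choice of genes.

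In unscaled TPM, the minimum and the fold of the choice were met more often for 8-cell over egg than in the other direction. The terms were not equal. Of 10437 genes at 10 TPM or more in both 8-cell libraries, 329 (3.15%) were at least 4 times the higher egg library. Of 5525 genes at 10 TPM or more in both eggs, 19 (0.344%) were at least 4 times the higher 8-cell library. With all conditions of the choice applied and the 2 stages exchanged, 14 genes were left, against 226. All counts and shares in this paragraph are of TPM without further scaling. Median-of-ratios factors were 1.26 and 1.52 for the 8-cell libraries, against 0.910 and 0.821 for the eggs. Dividing by them lowers 8-cell values relative to egg values. How far this bears on the counts in either direction was not tested. The exchanged count was not made after scaling, so no direction is read from these counts. At a fold of 2 the counts were 1415 (13.6%) for 8-cell over egg and 65 (1.18%) for egg over 8-cell, and at a fold of 8 they were 91 and 6. Both libraries of the higher stage had to be high, and the egg libraries differed more from each other than the 8-cell libraries did. In each of the 4 single pairs of libraries more genes were 4-fold higher in the 8-cell library than in the egg library, by unequal margins. The share of genes 4-fold higher in the 8-cell library, and that 4-fold higher in the egg library, were 32.1% and 15.2% for 8-cell replicate 1 with egg replicate 1, and 23.4% and 21.1% for it with egg replicate 2. They were 30.1% and 10.3% for 8-cell replicate 2 with egg replicate 1, and 14.9% and 11.3% for it with egg replicate 2.

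**Figure D2:**
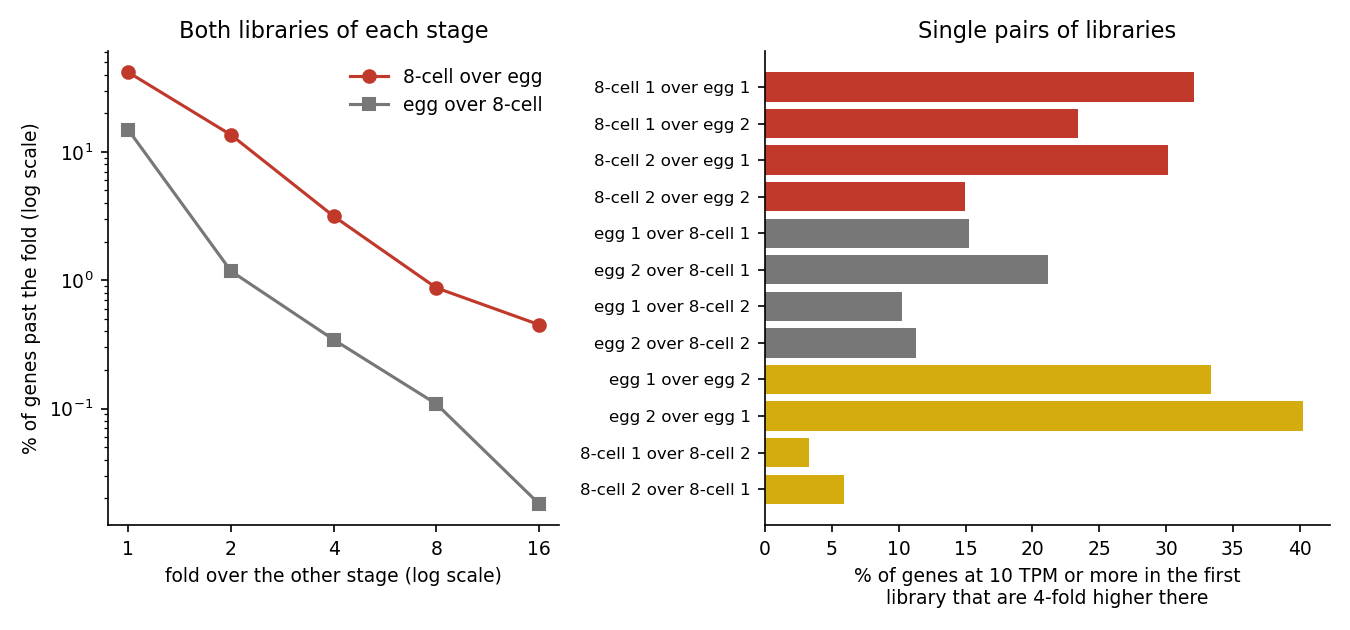
Left, share of genes at 10 TPM or more in both libraries of a stage that exceed both libraries of the other stage by a given fold, on log axes, with 8-cell over egg in red and egg over 8-cell in grey (3.15% and 0.344% at 4-fold). Right, share of genes 4-fold higher in the first library of a single pair, labelled by stage and replicate number. Pairs within a stage are yellow, and the egg pair reaches 33.3% and 40.2%. All shares are of TPM without further scaling.

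The scaling also moved the size of the group. Median-of-ratios scaling divided the 8-cell libraries by 1.26 (replicate 1) and 1.52 (replicate 2), and the egg libraries by 0.910 (replicate 1) and 0.821 (replicate 2). After it 48 genes met all conditions, 47 of them among the 226. After quantile normalization 83 genes met them, 82 of them among the 226, and 40 of the 226 met them after each of these scalings. The limits of 10 TPM and 20 TPM were applied unchanged to the scaled values. Genes lost through the 8-cell minimum were therefore not told apart from genes lost through the fold. Among the 226, 37 had at least 16 times the egg maximum or were listed at 0 in both eggs. Of these, 15 met all conditions after median-of-ratios scaling and 32 after quantile normalization. With 1 egg library left out, 809 genes met the conditions (without egg replicate 1) or 1475 (without egg replicate 2). With 1 8-cell library left out, 498 met them (without replicate 1) or 1084 (without replicate 2). Leaving out a library can only loosen the limits, so these counts could not fall below 226.

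The group was also described with 1 library of a stage left out of the choice. Of 1084 genes chosen with 8-cell replicate 1 alone, 250 (23.1%) reached 10 TPM and the 4-fold limit in 8-cell replicate 2, against 0.487% of all genes. Of 498 chosen with 8-cell replicate 2 alone, 232 (46.6%) reached both limits in replicate 1, against 0.920% of all genes. Both eggs entered these choices, so a position above them is favoured. The shares of all genes also include genes at low levels in both 8-cell libraries. Nothing is therefore read from the shares. Genes chosen with 1 egg library alone had a median of 13.0 TPM in egg replicate 2 (1475 genes chosen with replicate 1) and 13.8 TPM in egg replicate 1 (809 genes chosen with replicate 2). Genes low in 1 egg library were thus often above 10 TPM in the other, and the 226 are by definition those low in both. Choosing by low values in 1 library favours higher values in the library not used, so the medians are a description.

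Around the 4-fold limit the genes formed a continuum. The members nearest to it had 4.004, 4.01 and 4.02 times the egg maximum, and the nearest genes outside had 3.99, 3.99 and 3.98 times. The fold alone kept out 2388 genes that met each other condition, the 8-cell minimum alone 1885, the late limit alone 90 and the egg limit alone 12. The highest egg value of a member was 19.7 TPM, and the lowest egg maximum among the genes kept out by the egg limit alone was 21.0 TPM. The lowest 8-cell value of a member was 10.1 TPM, against at most 9.996 TPM among the genes kept out by that minimum alone. The highest late library of a member reached 0.981 times its lower 8-cell library, against 1.01 times for the nearest gene outside. Among members above 0 in at least 1 egg library, the lower 8-cell library was a median of 5.70 times the higher egg library, and at most 121 times.

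The 2 members with the highest 8-cell mean were single-transcript genes. Gene c105904_g1 had 184.8 and 74.7 TPM in the 8-cell libraries, against 0.852 and 12.1 TPM in the eggs. The 8-cell values did not overlap the egg values, and both pairs of libraries were uneven. It then had 9.65 and 21.7 TPM at stage 26 and 59.96 and 33.2 TPM in tadpoles. Gene c159026_g1 had 155.6 and 93.2 TPM in the 8-cell libraries, against 13.2 and 11.1 TPM in the eggs, where its libraries lay close together. It had 4.06 and 14.6 TPM at stage 26 and 7.15 and 3.05 TPM in tadpoles, so its late values spread across its egg values.

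The 8-cell against egg difference did not pass the test for any of the 226 genes, nor for any of the 119072 genes tested. The test was limma's two-sided moderated test on log2(TPM + 1), with Benjamini-Hochberg adjustment over the genes that reached 1 TPM in 2 or more libraries. The share of all tested genes called was 0% in this comparison, and the smallest adjusted p among the 226 was 0.212 (limma). For c105904_g1 the log2 difference was 4.59 (SE 1.02, adjusted p = 0.324, limma) and for c159026_g1 it was 3.21 (SE 0.72, adjusted p = 0.328, limma). The median log2 difference of the 226 was 3.01, against 0 over all genes tested. At an unadjusted p under 0.05, 224 of the 226 were higher in 8-cell embryos, against 5.90% of all genes tested; the choice used this contrast, so nothing is read from that count. All 226 passed the filter on low values, because both 8-cell libraries had at least 10 TPM, and 200 of them would have passed it by the other 6 libraries.

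Most of the genes were detected in eggs at a low level. Of the 226, 179 were above 0 in both egg libraries, 31 were listed at 0 in egg replicate 1 alone, 6 in egg replicate 2 alone and 10 in both. In both eggs, 116 had at least 1 TPM, 11 had at least 5 TPM, and 35 were below 1 TPM. The members leaned to egg replicate 2, which was the higher egg library for 155 genes, against 61 for egg replicate 1. It was the higher for 68.6% of the members, against 41.7% of 5799 other genes with at least 10 TPM in both 8-cell libraries, lower levels in all late libraries and an 8-cell mean in the same range. The 8-cell libraries leaned to replicate 1, which was the higher for 68.6% of the members and 58.4% of those other genes. These differences between the sets were not tested, and the egg limits of the choice bear on the first of them.

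The late level relative to the 8-cell level varied widely among the genes. RNA that persisted from the 8-cell stage and RNA made later cannot be told apart in these levels. The mean of the 4 late libraries was a median of 15.8% of the 8-cell mean, with quartiles of 6.74% and 28.8% and a highest value of 73.1%. For 79 genes (35.0%) it was under 10% of the 8-cell mean, for 143 it was 10% to 50%, and for 4 it was 50% or more. In all 4 late libraries, 28 genes were below 1 TPM, of which 9 were listed at 0 throughout, and 30 genes had at least 5 TPM. For the 5799 other genes the late mean was a median of 22.2% of the 8-cell mean, and 18.4% of them were under 10%. Below 1 TPM in all late libraries were 12.4% of the members and 4.66% of the other genes. These shares are side by side as a description, since the late limit was part of the choice of both sets.

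**Figure D3:**
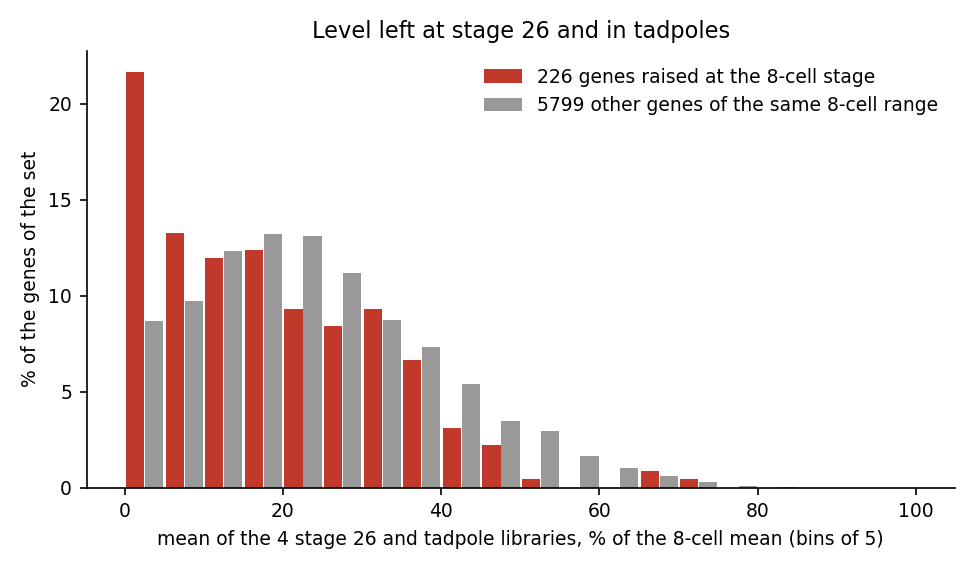
Mean of the 4 stage 26 and tadpole libraries as a percentage of the 8-cell mean, in bins of 5 percentage points, for the 226 genes (red) and 5799 other genes of the same 8-cell range (grey); bars are the share of each set. The medians are 15.8% and 22.2%, and the lowest bin holds 21.7% of the 226 genes and 8.69% of the others.

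The egg, 8-cell and late levels of the genes were related. Across the 226 genes the late mean followed the egg mean with Pearson's r = 0.49 and Spearman's rho = 0.49, and the 8-cell mean with r = 0.47 and rho = 0.44, on log2(TPM + 1). These are descriptions across genes, which are no independent replicates, and all values come from the same 8 libraries. The choice bounded both the egg and the late level by the 8-cell level, so part of these relations was set by the choice. The median late mean was 2.09 TPM in the class of 10 to 20 TPM, 4.95 TPM in that of 20 to 40 TPM and 9.08 TPM in the highest, beside the egg medians given above. For the 37 genes at 16 times the egg maximum or more, or listed at 0 in both eggs, the late mean was a median of 9.49% of the 8-cell mean. For the other 189 it was 18.3%. The 8-cell means of the 37 genes had a median of 19.3 TPM, against 22.7 TPM for the others.

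Between stage 26 and the 8-cell stage, 106 of the 226 genes were called lower and 0 higher (limma, adjusted p under 0.05), where 3.27% of all genes tested were called lower and 10.6% higher. The late limit of the choice used this contrast, so the count is given without a reading. The same holds for the p-values of the 2 genes below, which were also picked as the largest falls. The median log2 difference was -2.50 for the 226 genes and 0.57 for all genes tested. The 2 largest falls were of genes nearly absent by stage 26. Gene c120889_g1 had 0 and 0.287 TPM at stage 26, against 109.5 and 92.4 TPM in 8-cell embryos, a log2 difference of -6.48 (SE 0.73, adjusted p = 0.0115, limma). It had 11.7 and 1.93 TPM in eggs and 0.298 and 0 TPM in tadpoles, so it was high in the 8-cell libraries and near 0 in each late library. Gene c103229_g1 had 0.300 and 0 TPM at stage 26, against 43.5 and 59.1 TPM in 8-cell embryos, a log2 difference of -5.50 (SE 0.57, adjusted p = 0.0102, limma). It had 2.32 and 6.96 TPM in eggs and 0.807 and 0.470 TPM in tadpoles. The 106 calls became 0 when just the 4 libraries of these stages were fitted. In that fit 0 of all genes tested were called in either direction, so the loss was not particular to the 226. With any 1 library left out, the median log2 difference of the 226 genes lay between -2.74 and -2.30. At an unadjusted p under 0.05, 181 of the 226 were lower in the fit to all stages (8.85% of all genes tested). In the fit to the 4 libraries 177 were lower, and the share of all genes was not counted there.

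The 4 genes with a late mean of at least 50% of the 8-cell mean had 8-cell means between 12.3 and 54.0 TPM, and the 2 with the highest late share are given here. Gene c111682_g1 had 12.1 and 12.6 TPM in 8-cell embryos, against 2.17 and 2.35 TPM in eggs. It had 10.3 and 8.48 TPM at stage 26 and 6.57 and 10.7 TPM in tadpoles, a late mean of 73.1% of the 8-cell mean. Gene c131882_g5 had 45.9 and 46.5 TPM in 8-cell embryos, against 8.74 and 5.07 TPM in eggs. It had 32.0 and 39.1 TPM at stage 26 and 16.1 and 40.4 TPM in tadpoles, a late mean of 69.1% of the 8-cell mean. In both genes each late library was above both eggs.

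**Figure D4:**
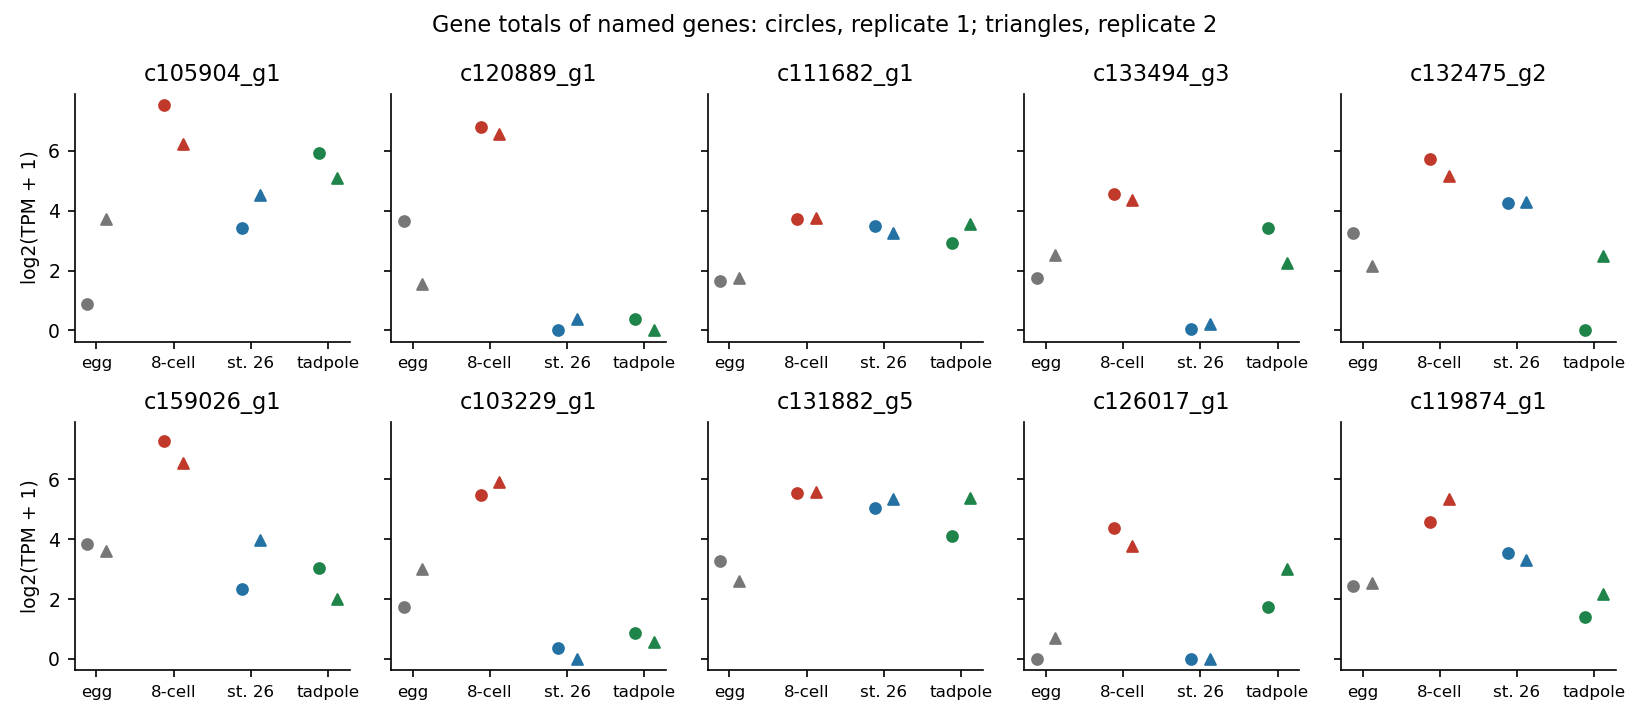
Gene totals as log2(TPM + 1) of 10 named genes by stage, with circles for replicate 1 and triangles for replicate 2. From left to right the columns hold the 2 highest at the 8-cell stage, the 2 largest falls to stage 26 and the 2 with the highest late share. They then hold the 2 largest differences in each direction between tadpole and stage 26 among genes whose libraries do not overlap. Gene c105904_g1, top left, is at 184.8 and 74.7 TPM in the 8-cell libraries.

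Tadpoles and stage 26 embryos were limited alike by the choice, and the 226 genes had no common direction between them. Both tadpole libraries lay above both stage 26 libraries for 42 genes (18.6%, against 20.4% of all genes tested) and below them for 45 (19.9%, against 14.9%). Among the 5799 other genes of the same 8-cell range, 8.73% were above and 31.8% below, and the difference between the sets was not tested. The median log2 difference of tadpole over stage 26 was -0.05 for the 226 genes, -0.30 for the 5799 other genes and 0 for all genes tested. Across the 226 genes the means of the 2 stages followed each other with r = 0.75 and rho = 0.74 on log2(TPM + 1), again a description. The test called 1 of the 226 genes higher in tadpoles, where 4.35% of all genes tested were called higher, and 0 lower, where 0.981% were (limma, adjusted p under 0.05). At an unadjusted p under 0.05, 13 genes (5.75%) were higher in tadpoles and 8 (3.54%) lower, against 11.6% and 4.78% of all genes tested. Without the 8-cell libraries, 200 of the 226 would have passed the filter on low values. The rest reached 1 TPM in at most 1 egg or late library, which bears on these shares.

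The called gene, c133494_g3, had 9.69 and 3.72 TPM in tadpoles, against 0.043 and 0.164 TPM at stage 26 (log2 difference 2.69, SE 0.58, adjusted p = 0.0452, limma). It had 22.4 and 19.3 TPM at the 8-cell stage and 2.34 and 4.68 TPM in eggs, so it was nearly absent at stage 26 alone. Another member of the same component had 0 and 4.96 TPM at stage 26, and 14.3 and 5.66 TPM in tadpoles. Whether reads were divided between these genes was not tested. Among alternatives with 2 libraries in each fitted stage, the call of c133494_g3 held with a pseudocount of 0.1 and was lost in all others. Its adjusted p there was between 0.0193 and 0.315 (limma). In the fit to these 2 stages, and with the replicate number as a block, 0 of all genes tested were called. Without 1 library the log2 difference of c133494_g3 was between 2.10 and 3.28. The next largest positive difference was of c126017_g1, which had 2.34 and 7.08 TPM in tadpoles and was listed at 0 in both stage 26 libraries (adjusted p = 0.0734, limma). It had 19.8 and 12.5 TPM at the 8-cell stage and 0 and 0.607 TPM in eggs. Among genes whose libraries did not overlap, the largest differences in the other direction were of c132475_g2, with 0 and 4.56 TPM in tadpoles against 18.1 and 18.5 TPM at stage 26, and c119874_g1, with 1.63 and 3.54 TPM against 10.5 and 8.88 TPM. Their log2 differences were -3.03 (SE 0.86, adjusted p = 0.107, limma) and -1.63 (SE 0.54, adjusted p = 0.166, limma), neither past the threshold.

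**Figure D5:**
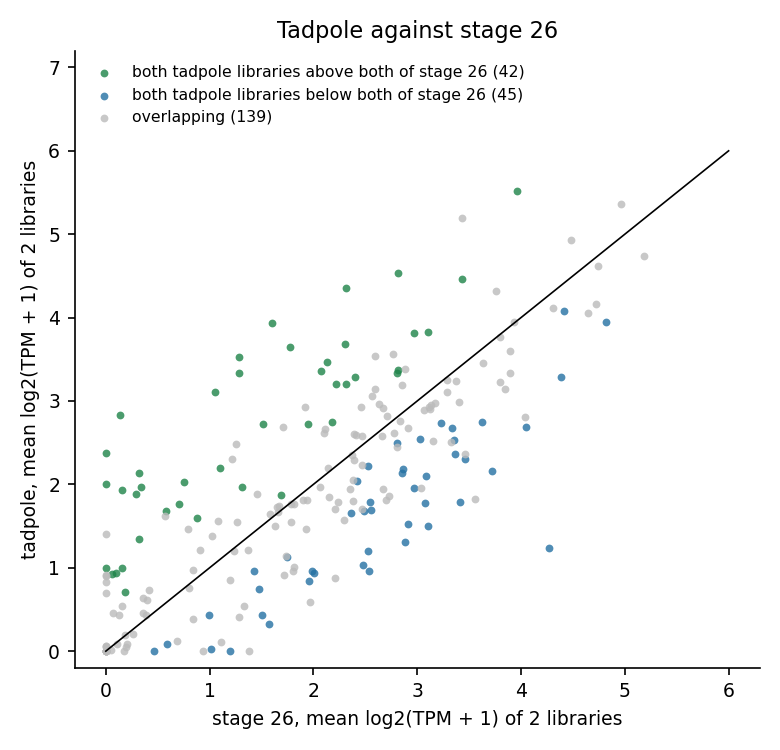
Mean log2(TPM + 1) of the 2 tadpole libraries against that of the 2 stage 26 libraries for the 226 genes; the line marks equal levels. Both tadpole libraries lie above both stage 26 libraries for 42 genes (green) and below for 45 (blue), and the libraries of 139 genes overlap (grey).

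The late levels lay above, below or across the egg levels, depending on the gene, and above them less often than among all genes tested. All 4 late libraries were above both eggs for 60 genes (26.5%, against 36.7% of all genes tested) and below both for 21 (9.29%, against 7.05%), and they overlapped for 145. At stage 26 alone 88 genes were above both eggs (38.9%, against 45.4%) and 30 below (13.3%, against 8.76%). In tadpoles 92 were above (40.7%, against 51.4%) and 37 below (16.4%, against 10.7%). Among the 5799 other genes, whose egg levels were not limited, all 4 late libraries were above both eggs for 0.879% and below for 48.6%. The median log2 difference of the late mean over the egg mean was 0.61 for the 226 genes, -1.38 for the 5799 other genes and 0.95 for all genes tested. For the 226 genes it was -0.25 after quantile normalization, so its direction depended on the scaling. Egg values were limited more tightly than late values by the choice, and this position is therefore a description.

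The split of the genes into transcripts was not used in the choice. Of the 226 genes, 118 (52.2%) had 1 transcript, 83 had 2 or 3, and 25 had 4 or more, up to 9. Among the 5799 other genes of the same 8-cell range 57.6% had 1 transcript, and among all genes 70.2%. Of the 108 members with several transcripts, 59 had 1 transcript that met all conditions of the choice by itself, 5 had 2 or more, and 44 had none and met them through the sum alone. The same transcript led in both 8-cell libraries for 92 of the 108, and the leading transcript held a median of 74.8% of the gene in 8-cell replicate 1 and 72.2% in replicate 2. It was picked by its 8-cell level, which favours a high share there. In the other libraries that transcript held a median of 57.5% to 71.4% of the gene.

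The leading transcript of the 8-cell stage did not always lead in both libraries of another stage, and eggs held little of these genes. A gene not counted as led by it in both libraries may still be led by it in 1 of them. Of 57 members with several transcripts and at least 1 TPM in both eggs, the 8-cell leading transcript led in both eggs for 27 (47.4%), against 66.4% of 2209 such genes in the other set. At stage 26 it led in both libraries for 39 of 66 (59.1%, against 58.5%), and in tadpoles for 35 of 68 (51.5%, against 58.3%). The differences between the sets were not tested, and the members had lower egg levels. A change of leading transcript meant that 1 transcript led in both 8-cell libraries and 1 other in both libraries of another stage, with no margin required. Such a change was seen in 5 genes against eggs (8.77%, against 4.53% in the other set), 2 against stage 26 (3.03%, against 7.21%) and 6 against tadpoles (8.82%, against 9.18%), 11 genes in all. In 12 of the 108 members with several transcripts (11.1%) the leading transcript was listed at 0 in both eggs although the gene was not, against 14 of 2459 (0.569%) in the other set. The egg limits of the choice favour such zeros, so nothing is read from that count.

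In gene c103229_g1 the change was against eggs. Its transcript c103229_g1_i2 had 36.3 and 33.1 TPM in 8-cell embryos, against 0.406 and 0 TPM in eggs. Its transcript c103229_g1_i1 had 7.11 and 25.9 TPM in 8-cell embryos, against 1.91 and 6.96 TPM in eggs, so the 2 transcripts differed in how far the 8-cell stage stood above the egg. In gene c132707_g2 the change was against tadpoles. Transcript c132707_g2_i1 had 5.19 and 0 TPM in tadpoles, against 46.7 and 35.7 TPM in 8-cell embryos, and c132707_g2_i2 had 5.34 and 6.92 TPM in tadpoles, against 4.65 and 4.03 TPM in 8-cell embryos. Tadpole replicate 1 held the 2 transcripts at nearly equal levels.

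Other assembly genes of the same component, the unit above the gene in the identifiers, were compared between 8-cell embryos and eggs. A component can be split into several genes by the assembler, and sequences within it can resemble each other, so reads may have been divided between them. Of the 226 genes, 132 (58.4%) had at least 1 other gene in their component, against 48.8% of the 5799 other genes and 33.6% of all genes. Of the 226 genes, 21 shared a component with another member, in 10 components. For 96 of the 132 (72.7%) the sum of the other genes was also higher in both 8-cell libraries than in both eggs, and for 5 it was lower. The same was seen for 1162 of 2829 such genes in the other set (41.1%), with 82 lower, and for 32.3% of all genes that share a component. These sums include other members, so for the 21 genes that share a component with one the choice itself favoured a higher 8-cell sum. No further fold or late limit was applied to the sums, and the difference between the sets was not tested. By the choice, all members were themselves above both eggs in both 8-cell libraries, against 43.5% of the 5799 other genes. Where reads are divided within a component, the choice can bear on the sums too, so nothing is read from these shares. The median of that sum was 20.4 TPM in 8-cell embryos and 5.85 TPM in eggs for the members, and 20.3 TPM and 13.4 TPM in the other set.

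When all genes of the component were added up, the 4-fold limit was kept for 53 of the 132. For a further 50 of these genes the component total was 2 to 4 times its egg maximum, and for 21 it was above it by less than 2 times. For 8 the lower 8-cell library of the total was not above the higher egg library. In 17 of the 226 genes (7.52%) the other genes of the component had 20 TPM or more in both eggs, against 11.3% of the 5799 other genes and 3.40% of all genes. Gene c125542_g3 had 98.3 and 56.4 TPM in 8-cell embryos, against 6.32 and 1.94 TPM in eggs. In its component of 5 genes, c125542_g1 had 48.5 and 78.0 TPM in 8-cell embryos, against 304 and 79.4 TPM in eggs. Gene c131157_g3 had 72.6 and 33.9 TPM in 8-cell embryos, against 3.95 and 4.15 TPM in eggs, while c131157_g6 of the same component had 244 and 376 TPM, against 121 and 365 TPM. In both components the abundant gene was present in eggs and did not share the 8-cell peak: c125542_g1 was lower in both 8-cell libraries than in both eggs, and the values of c131157_g6 overlapped.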

How the data were processed

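The deposited table holds TPM estimated by the authors; the submitters' processing notes name kallisto 0.42.4, a tool that assigns reads to transcripts by pseudoalignment. The sources used here do not give the assembly, its filters or read totals, and no gene names, sequences or coordinates were used. Stages came from the source names and columns were matched by title. Columns summed to 991754 to 998506 TPM. TPM keeps no absolute depth, so no counting intervals were computed.

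TPM was summed per assembly gene. With limma 3.58.1 (R 4.3.3), 1 mean per stage was fitted to log2(TPM + 1) of the 8 libraries (trended moderated variance, 4 residual degrees of freedom) for 119072 genes that reached 1 TPM in 2 or more libraries, and calls had a Benjamini-Hochberg adjusted p under 0.05. Summaries and plots used pandas 2.3.3 and matplotlib 3.10.9 in Python 3.11.15.

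At most 2 genes in each direction were named: the highest 8-cell means, the largest falls to stage 26, the highest late shares, the largest differences between tadpole and stage 26 among genes whose libraries did not overlap, and, by 8-cell mean, those with a change of leading transcript or with 20 TPM or more in both eggs in the rest of the component. Lists of marker genes were not applied, since identifiers carry no names. The members, tests and lists were chosen with earlier results of these data known, and the set of 5799 other genes after seeing the data. Alternatives covered the pseudocount, the filter, 2 scalings, a fit to the compared stages, the replicate number as a block, other limits and units of the choice, and each library left out.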

Additional observations from a re-analysis of the deposited data

How the results depend on the processing

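The number of genes meeting all conditions was 226 with the choice as given. It was 497 with an 8-cell minimum of 5 TPM, 91 with 20 TPM, 877 with a fold of 2, 68 with a fold of 8, 48 after median-of-ratios scaling and 83 after quantile normalization. Without 1 library, which can only loosen the limits, it ranged from 231 to 1475. Summing per component gave 165 components, which held 140 of the 226 genes. Applied to single transcripts, the choice gave 267 transcripts of any gene, and 182 of the 226 genes held at least 1 of these. In limma alternatives with 2 libraries in each fitted stage, 0 of the 226 and 0 of all genes tested were called between 8-cell embryos and eggs. There 209 to 226 of the 226 had an unadjusted p under 0.05, in a contrast that the choice used, so nothing is read from that count. Without 1 library the median log2 difference of the 226 genes was between 2.65 and 3.38. The 106 genes called lower at stage 26 than at the 8-cell stage became 0 in a fit to these 2 stages and 0 to 114 without 1 library; the other alternatives without a block gave 85 to 130. The 1 gene called between tadpole and stage 26 became 2 with a pseudocount of 0.1 and 0 with a pseudocount of 5. It became 0 without a filter, 0 with a minimum of 5 TPM and 0 after quantile normalization. Median-of-ratios scaling gave 1, of another gene. In these alternatives 1515 to 6863 of all genes tested were called higher in tadpoles and 282 to 1501 lower. A fit to these stages gave 0, where 0 of all genes tested were called. The cause of these shifts was not tested. The median difference of the 226 genes between tadpole and stage 26 stayed between -0.17 and 0. The late level relative to eggs, 0.61, reversed to -0.25 after quantile normalization and was otherwise between 0.30 and 0.87; these alternatives were chosen after seeing the data.

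Libraries of different stages share only a replicate number, since the labels name no common clutch or day. Deviations of same-numbered libraries from their stage means correlated at -0.27 to 0.17 across genes. With the replicate number as a block, 68 members were called lower at stage 26 than at the 8-cell stage, where 1300 of all genes tested were. Between tadpole and stage 26 that fit called 0 members and 0 of all genes tested, so nothing is read from the 0 for the members.

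Depth could not be read from TPM, and 2 libraries a stage leave few degrees of freedom. A 4-fold difference between eggs and 8-cell embryos was no larger than many differences between the egg libraries.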
